A study of Mus musculus with 38 samples.

Results

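RUNX1 occupancy in Notch-stimulated Phase 1 cells was compared between control cells and cells with a disrupted Med12 gene. The members were the anti-RUNX1 chromatin immunoprecipitation (ChIP) peaks of these 2 conditions, 1550 from sgCont cells and 2094 from sgMed12 cells. Together they were 3644 of the 359759 peaks in the 17 peak lists of the series, and they came from 4 of its 38 samples. An sgCont peak was called kept when at least 1 bp of it lay under an sgMed12 peak and lost when it did not. An sgMed12 peak was called gained when no sgCont peak touched it and refound otherwise. Peaks annotated promoter-TSS (at a transcription start site) were treated apart from all others, which are called non-promoter peaks here.

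All groups were Cas9-LP cells, a lymphoid progenitor line derived from the fetal liver of mice that lacked Ebf1 and carried Cas9 in Rosa26. Phase 1 cells were such progenitors grown on OP9-DLL4, a stromal line that displays the DLL4 ligand of Notch receptors, whereas cells labelled LP were grown on OP9 stroma without it. The sgCont and sgMed12 cells received retroviruses that encode guide RNAs together with hNGFR, the human nerve growth factor receptor used as a surface mark. The control guides were directed against luciferase, and the guides for each gene were used as a pool of 3, so each condition was a mixed population and not a clone. The lists without a guide name (Phase 1 RUNX1, Med12, p300, CTCF and Notch1-IC, and the LP lists) came from the same line without guide RNAs. The study states that cells were scarce after gene disruption and that these libraries were noisier than its others. Each list combined 2 replicates by irreproducible discovery rate, so no spread between replicates could be computed. The intervals below are 95% Wilson intervals for shares and Newcombe intervals for differences in percentage points, and they cover counting error only. The peak lists hold no measurement of Med12 itself or of RNA, so the disruption and the cell identity were not checked here. In a pooled population, fewer cells with an occupied site and less RUNX1 per cell cannot be told apart.

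RUNX1 is a DNA-binding factor that pairs with CBFβ, recognizes the RUNX motif and acts from progenitors through the mature T cell. Med12 belongs to the kinase module of Mediator, the complex that links transcription factors at enhancers to RNA polymerase II. p300 is an acetyltransferase found at active enhancers and promoters, CTCF is the zinc finger protein that organizes chromatin loops, and Notch1-IC is the intracellular part of Notch1 that works with the DNA-binding protein RBPJ. AP-1 is a dimer of Fos and Jun family proteins whose genes respond quickly to signals.

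The results below turn on peaks that stayed, disappeared or appeared at loci of T cell and signal-responsive genes. The sequences of 8 of them are shown to make the strings compared later visible. Each is the central 200 bp of the peak, plus strand, from the mm10 reference genome (GRCm38), with coordinates counted from 1. Capitals mark the RUNX strings TGTGGTT and TGCGGTT, the AP-1 strings TGACTCA and TGAGTCA, the RBPJ string GTGGGAA, and their reverse complements. The windows of the kept Atp13a2 peak and the gained Mir23a peak were those of the highest-scored non-promoter peaks of their outcome that held a RUNX string outside exons and repeats. The Ksr1 window is the same for lost peaks, and the Zfp36 window belongs to the highest-scored gained non-promoter peak with an AP-1 string. The other 4 belong to Notch target or T cell genes described below and were chosen after their values were seen.
Atp13a2, kept, 3.22 kb upstream of the start site, chr4:140983552-140983751: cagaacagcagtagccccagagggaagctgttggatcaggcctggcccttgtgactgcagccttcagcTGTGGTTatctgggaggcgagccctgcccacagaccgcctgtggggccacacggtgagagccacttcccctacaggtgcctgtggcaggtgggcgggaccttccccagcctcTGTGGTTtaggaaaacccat
Ksr1, lost, intron, chr11:79076581-79076780: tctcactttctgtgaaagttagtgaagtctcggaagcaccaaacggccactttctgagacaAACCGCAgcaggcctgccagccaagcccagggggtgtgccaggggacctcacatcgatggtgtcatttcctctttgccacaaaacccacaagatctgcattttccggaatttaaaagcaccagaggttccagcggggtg
Mir23a, gained, 9.98 kb upstream, chr8:84198437-84198636: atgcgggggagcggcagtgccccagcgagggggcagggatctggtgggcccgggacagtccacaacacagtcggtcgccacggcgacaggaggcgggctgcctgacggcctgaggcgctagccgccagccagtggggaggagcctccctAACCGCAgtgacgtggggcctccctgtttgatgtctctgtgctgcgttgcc
Zfp36, gained, 3.93 kb upstream, chr7:28383061-28383260: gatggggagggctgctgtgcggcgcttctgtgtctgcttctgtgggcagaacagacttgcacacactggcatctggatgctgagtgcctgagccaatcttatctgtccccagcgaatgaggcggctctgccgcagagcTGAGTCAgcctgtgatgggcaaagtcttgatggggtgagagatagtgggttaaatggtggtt
Hes1, gained, promoter, chr16:30065130-30065329: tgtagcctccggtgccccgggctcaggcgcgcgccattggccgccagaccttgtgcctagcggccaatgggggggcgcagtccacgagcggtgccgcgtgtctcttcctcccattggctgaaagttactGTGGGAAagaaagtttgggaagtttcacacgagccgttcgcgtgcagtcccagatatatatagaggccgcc
Notch1, lost, intron, chr2:26502230-26502429: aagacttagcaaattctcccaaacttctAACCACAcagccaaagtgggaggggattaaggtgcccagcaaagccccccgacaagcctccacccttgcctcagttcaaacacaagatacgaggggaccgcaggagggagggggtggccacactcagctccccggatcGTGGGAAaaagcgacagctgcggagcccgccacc
Tcf7, kept, 31.4 kb upstream, chr11:52314296-52314495: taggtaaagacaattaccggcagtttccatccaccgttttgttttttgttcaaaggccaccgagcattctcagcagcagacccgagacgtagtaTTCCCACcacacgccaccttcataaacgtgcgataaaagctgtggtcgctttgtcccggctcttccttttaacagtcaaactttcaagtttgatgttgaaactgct
Zap70, kept, 56.9 kb downstream of the start site, chr1:36835772-36835971: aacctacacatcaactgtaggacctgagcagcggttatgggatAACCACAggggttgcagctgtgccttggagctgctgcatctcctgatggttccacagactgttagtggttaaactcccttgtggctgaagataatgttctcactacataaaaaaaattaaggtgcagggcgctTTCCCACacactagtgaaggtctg

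RUNX1 stayed at most of its control sites, and promoter sites were kept about as often as others. Of all 1550 sgCont peaks, 1101 (71.0%, interval 68.7 to 73.2) were kept. Of the 188 promoter peaks 140 were kept (74.5%, 67.8 to 80.2) and 48 were lost. Of the 1362 non-promoter peaks 961 were kept (70.6%, 68.1 to 72.9) and 401 were lost. The difference was 3.91 points with an interval from -3.17 to 10.1, so a difference between promoters and other sites was not detectable among the control peaks.

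The gained peaks differed from this. Of the 2094 sgMed12 peaks, 993 (47.4%) had no sgCont peak. Among promoter peaks 267 of 407 were gained (65.6%, 60.9 to 70.1), against 726 of 1687 non-promoter peaks (43.0%, 40.7 to 45.4), a difference of 22.6 points (17.3 to 27.6). Promoters thus made up 26.9% of gained peaks (24.2 to 29.7), against 12.7% of kept peaks (10.9 to 14.8) and 10.7% of lost peaks (8.16 to 13.9). Gained peaks exceeded lost peaks in promoter share by 16.2 points (12 to 20.0). In the control list promoters were 12.1% of peaks and in the sgMed12 list 19.4%. Among all peaks of each outcome, intergenic and intronic sites made up 42.4% and 40.7% of kept, 35.6% and 47.4% of lost, and 33.8% and 36.0% of gained peaks. Both guide lists had fewer promoters than the Phase 1 RUNX1 list of cells without guides, where promoters were 24.1% of 38399 peaks and 55.9% of the 1550 highest-scored peaks.

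**Figure D1:**
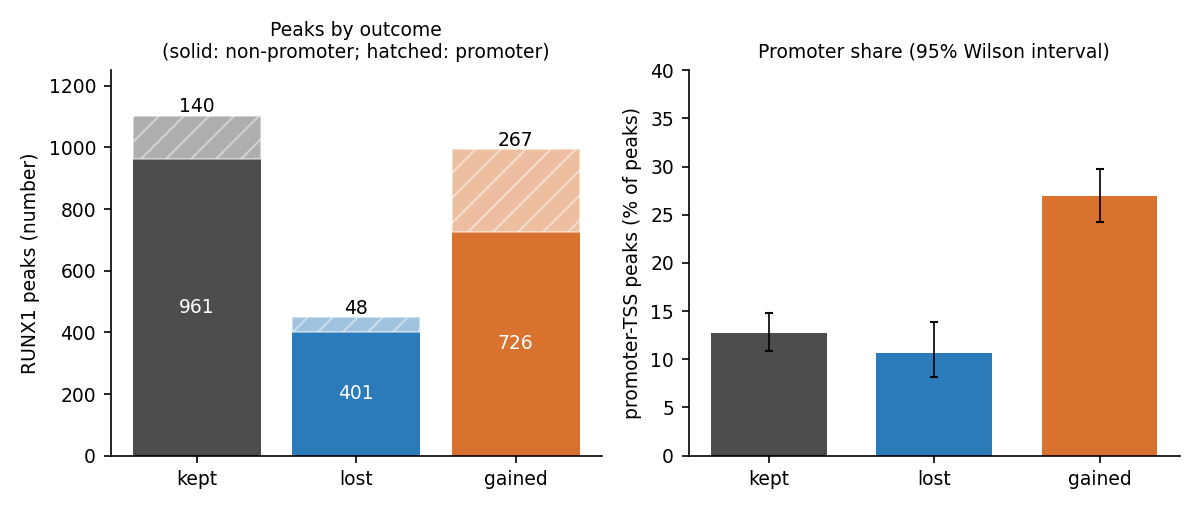
RUNX1 peaks by outcome after Med12 disruption. Left, the number of kept, lost and gained peaks on the y axis, solid for non-promoter and hatched for promoter peaks; right, the percentage of each outcome annotated promoter-TSS, with 95% Wilson intervals, which was 26.9% among gained peaks and 10.7% among lost peaks.

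The same measure was taken in the other 2 pairs of lists from cells with guide RNAs. For RUNX1 in LP cells after CTCF disruption, 30.8% of promoter peaks and 37.8% of non-promoter peaks were gained, a difference of -6.97 points (-13.2 to -0.674). For Med12 in Phase 1 cells after Cbfb disruption the values were 7.62% and 45.7%, a difference of -38.1 points (-39.2 to -37.0). In the CTCF pair gained peaks had a lower promoter share than lost peaks (47.7% against 60.4%), and in the Cbfb pair the shares were 11.9% and 10.1%. Of the 3 pairs, a larger gained share at promoters than elsewhere was seen in the Med12 pair alone. The control lists differed in promoter content, at 12.1% in the Med12 pair, 57.6% in the CTCF pair and 42.3% in the Cbfb pair. A gained peak is one absent from the control list, and the part of these differences in the gained shares was not tested.

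Peaks near the lower score limit were lost more often. Peak scores come from the authors' peak caller, no listed score was below 15, and scores were ranked only within a list. When the control peaks were split into 5 equal classes by score, 43.2% of non-promoter peaks in the lowest class were kept (37.5 to 49.0) and 90.7% in the highest (86.4 to 93.7). Promoter peaks went from 10 of 25 (interval 23.4 to 59.3%) to 84.4% (73.6 to 91.3). In the reverse direction the classes separated the 2 kinds of site. Of the highest-scored sgMed12 class, 78.6% of non-promoter peaks were refound in the control list (73.5 to 82.9) but 44.2% of promoter peaks (35.9 to 52.8). In that class gained peaks thus made up a larger share of promoter peaks than of other peaks.

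**Figure D2:**
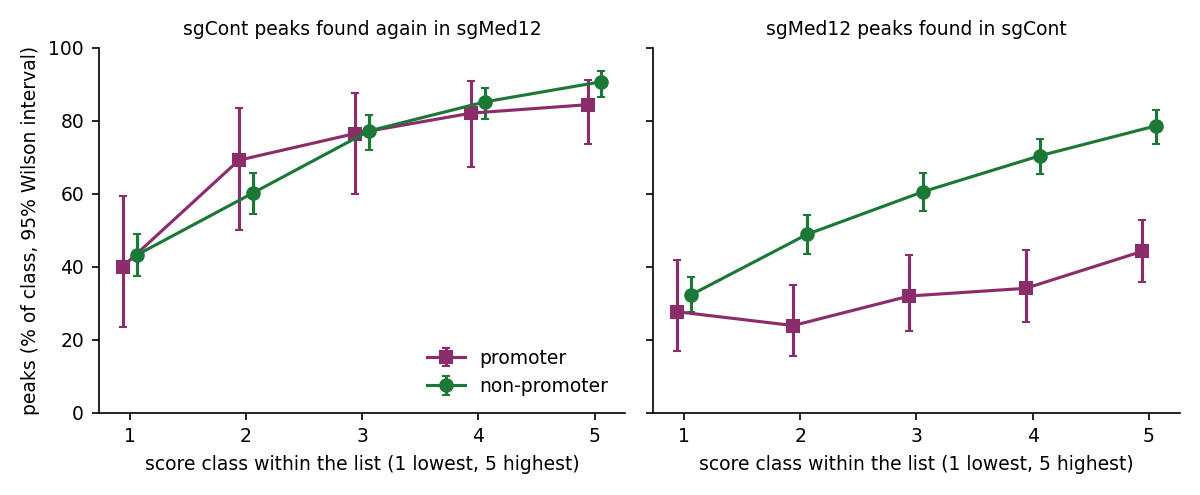
Share of RUNX1 peaks with a partner in the other list (y axis, percent, 95% Wilson interval) by score class within the list (x axis, 1 lowest to 5 highest), for sgCont peaks (left) and sgMed12 peaks (right). Promoter and non-promoter peaks run together on the left, whereas on the right the highest class reaches 44.2% for promoter and 78.6% for non-promoter peaks.

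The kept sites also kept their order. Across the 1101 kept pairs the score ranks in the 2 lists had a Spearman correlation of 0.75, and 0.84 across the 140 promoter pairs. This is a description over peaks of the same 2 lists, which are not independent replicates. Median percentiles of the kept peaks were 59.2 in sgCont and 59.9 in sgMed12, and 588 of the pairs (53.4%) ranked higher in sgMed12. Where 2 scores are printed for a kept peak below, the sgCont score comes before the sgMed12 score. Such scores are not comparable between the 2 lists, whose median scores were 24.6 and 21.1. A lower sgMed12 score therefore does not show weaker occupancy. The centers of a pair lay a median of 22.0 bp apart. Few lost peaks had an sgMed12 peak nearby: 10 lost non-promoter peaks and 0 lost promoter peaks lay within 1 kb of an sgMed12 peak.

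Nearly all members were sites that RUNX1 also occupied in Phase 1 cells without guide RNAs. Only 11 kept, 10 lost and 32 gained peaks had no peak in that list, and gained peaks were therefore seldom at places without RUNX1 in unmodified cells. Kept non-promoter peaks sat at a median score percentile of 95.1 in the Phase 1 RUNX1 list, gained ones at 89.5 and lost ones at 86.5. For promoter peaks these medians were 96.9, 94.6 and 91.0. The Phase 1 RUNX1 list thus served as a common scale. Among its promoter peaks above percentile 95, the sgCont list overlapped 101 of 1047 (9.65%) and the sgMed12 list 207 (19.8%). Of these, 121 were overlapped by the sgMed12 list alone and 15 by the sgCont list alone. Among the 874 non-promoter peaks above that percentile, 544 (62.2%) were overlapped by sgCont and 620 (70.9%) by sgMed12, with 125 by sgMed12 alone and 49 by sgCont alone. High-ranked promoter peaks were sparse in both guide lists and less so in the sgMed12 list.

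**Figure D3:**
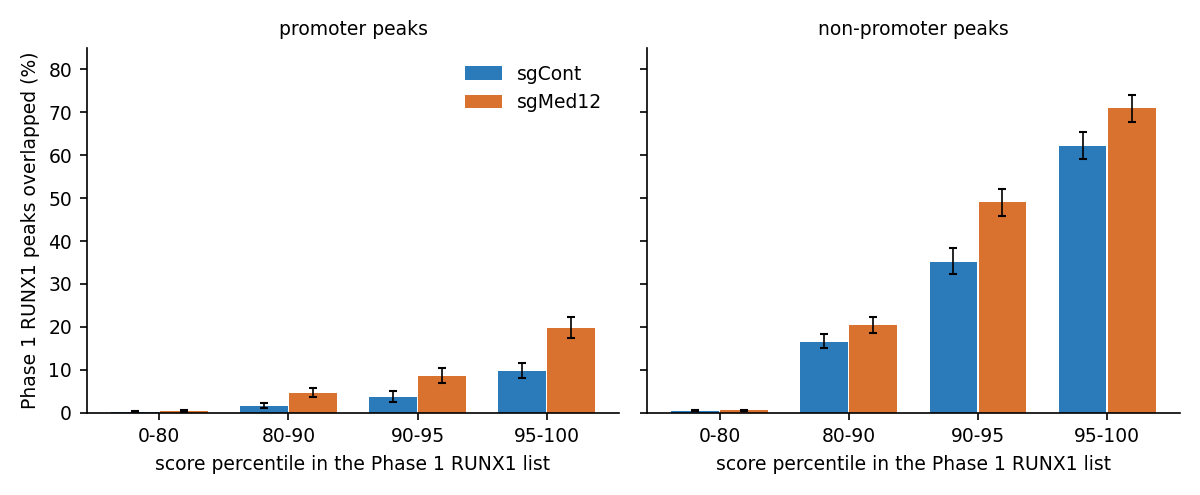
Percentage of Phase 1 RUNX1 peaks from cells without guide RNAs (y axis, 95% Wilson interval) that were overlapped by the sgCont or the sgMed12 list, by score percentile in that Phase 1 list (x axis). At promoters above percentile 95 the share was 9.65% for sgCont and 19.8% for sgMed12, and at non-promoter peaks 62.2% and 70.9%.

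The lists of Med12 and p300 in Phase 1 cells covered kept, lost and gained sites almost completely. Med12 peaks lay at 99.0% of kept, 96.0% of lost and 95.9% of gained non-promoter peaks, and p300 peaks at 98.5%, 96.3% and 93.9%. Kept sites exceeded lost sites by 2.95 points for Med12 (1.20 to 5.39) and by 2.28 points for p300 (0.528 to 4.70). Gained sites differed from kept sites by -3.09 points for Med12 (-4.86 to -1.59) and by -4.6 points for p300 (-6.67 to -2.8). Among peaks that were also on the Phase 1 RUNX1 list these differences shrank to -0.905 points for Med12 (-2.12 to 0.048) and -2.1 points for p300. At promoters Med12 peaks lay at 98.6% of kept, 91.7% of lost and 96.3% of gained peaks.

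CTCF sites were less common among gained peaks. Phase 1 CTCF peaks overlapped 25.9% of kept (23.2 to 28.8), 19.2% of lost (15.6 to 23.3) and 14.0% of gained non-promoter peaks (11.7 to 16.8). Gained sites differed from kept sites by -11.9 points (-15.6 to -8.05) and from lost sites by -5.15 points (-9.91 to -0.677). At promoters the shares of kept, lost and gained peaks were 28.6%, 33.3% and 21.3%, and the intervals of their differences included 0. The order varied with the rank of the non-promoter peaks in the Phase 1 RUNX1 list. Kept peaks were at 25.8%, lost at 16.8% and gained at 12.8% at or below percentile 80, whereas up to percentile 90 lost peaks were highest (20.3%, 24.1% and 15.5%). The shares were 24.6%, 18.8% and 13.9% up to percentile 95, and 28.7%, 11.8% and 11.0% above it.

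Sites of Notch1-IC under Notch stimulation were rare among the gained peaks. The Phase 1 and Phase 2 Notch1-IC lists combined, the latter from cells labelled as a later phase on the same stroma, overlapped 103 of 961 kept (10.7%), 35 of 401 lost (8.73%) and 11 of 726 gained non-promoter peaks (1.52%, 0.848 to 2.69). Gained sites differed from lost sites by -7.21 points (-10.5 to -4.55), and kept from lost sites by 1.99 points (-1.66 to 5.18). The contrast between gained and lost was seen with Phase 2 sites (10.1%, 8.48% and 1.1%). Phase 1 Notch1-IC sites were at 3.75%, 1.75% and 1.38%, and gained and lost peaks differed by -0.368 points (-2.29 to 1.08). Of the 352 Phase 2 Notch1-IC peaks, 136 were overlapped by the sgCont list and 109 by the longer sgMed12 list, with 36 in sgCont alone and 9 in sgMed12 alone. The Phase 2 Notch1-IC list was the only one of the 15 other lists that the sgCont list overlapped at more peaks than the sgMed12 list did. In each of 4 classes of Phase 1 RUNX1 percentile the share was lower for gained than for lost peaks, from 0.8% against 5.94% at or below percentile 80 to 4.72% against 15.7% above percentile 95. The differences within single classes rest on at most 12 peaks per class in the lost group.

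The LP Notch1-IC list behaved differently. It overlapped 45.0% of kept, 24.9% of lost and 21.9% of gained non-promoter peaks, so kept sites exceeded lost sites by 20.0 points (14.6 to 25.1) while gained and lost sites differed by -3.04 points (-8.33 to 2.04). Within classes of Phase 1 RUNX1 rank, kept sites were at 16.1% and lost sites at 14.9% at or below percentile 80. Up to percentile 90 the shares were 21.5% and 17.9%, and up to percentile 95 they were 35.9% and 36.2%. Above it, with 491 kept and 51 lost peaks, kept sites were at 60.5% and lost sites at 51.0%. In each class kept and lost sites differed by less than over all non-promoter peaks. RUNX1 sites of LP sgCont cells also coincided most with kept peaks, at 23.8%, against 6.73% of lost and 7.99% of gained peaks. Med12 peaks of Phase 1 cells after Cbfb disruption, in which the partner of all RUNX proteins is targeted, were least common at lost sites. They overlapped 48.5% of kept, 29.9% of lost and 55.5% of gained non-promoter peaks. Gained sites exceeded lost sites by 25.6 points (19.7 to 31.2) and kept sites by 7.02 points (2.2 to 11.8). The share was higher for gained than for lost sites in all 4 rank classes, with 69.3% against 39.2% above percentile 95. In its control list, Med12 of Phase 1 sgCont cells, the 3 shares were 98.6%, 95.3% and 95.3%. At promoters the sgCbfb list overlapped 85%, 75.0% and 93.3%, with gained sites 18.3 points above lost sites (7.53 to 32.3).

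**Figure D4:**
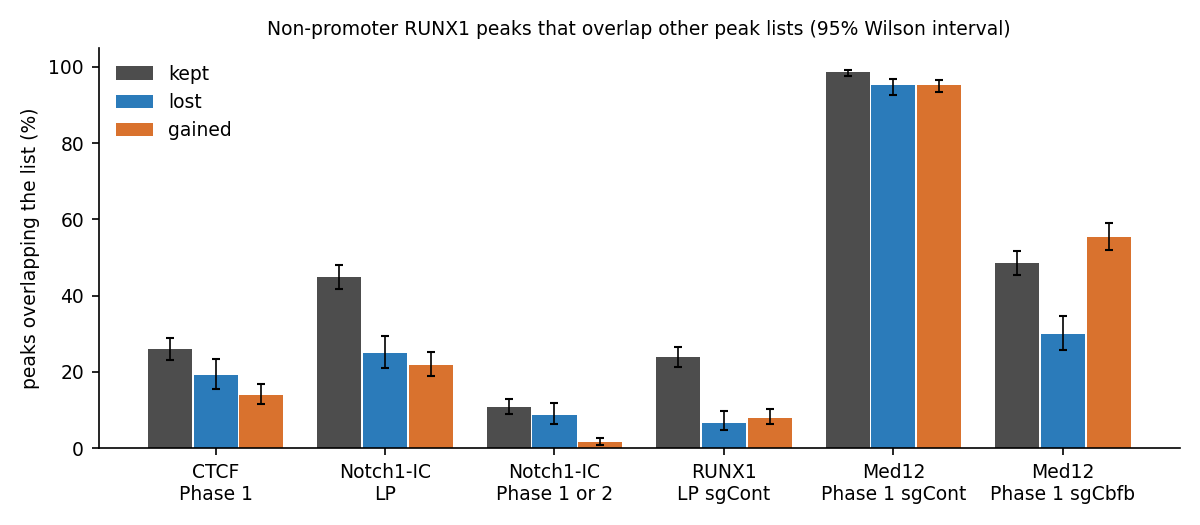
Percentage of kept, lost and gained non-promoter RUNX1 peaks (y axis, 95% Wilson interval) that overlapped each of 6 peak lists of the series (x axis). For stimulated Notch1-IC, gained peaks were at 1.52% and lost peaks at 8.73%. For Med12 of sgCbfb cells, gained peaks were at 55.5% and lost peaks at 29.9%.

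Non-promoter sites of all 3 outcomes carried RUNX strings, and among these sites the AP-1 string was most common in gained peaks. In the central 200 bp, searched on both strands, a RUNX string (TGTGGTT or TGCGGTT) was found in 49.3% of kept (46.2 to 52.5), 42.1% of lost (37.4 to 47.0) and 40.7% of gained non-promoter peaks (37.2 to 44.3). Windows of equal width 2 kb to each side held it in 5.98%, 5.61% and 6.0%, and the 29144 non-promoter peaks of the Phase 1 RUNX1 list in 31.5%. The AP-1 string (TGACTCA or TGAGTCA) was found in 71 of 961 kept (7.39%, 5.90 to 9.22), 15 of 401 lost (3.74%, 2.28 to 6.08) and 104 of 725 gained peaks (14.3%, 12 to 17.1). Its flanking windows held it in 4.37%, 4.49% and 3.59%, and Phase 1 RUNX1 peaks in 10.6%. Gained peaks thus exceeded lost peaks by 10.6 points (7.28 to 13.7) and kept peaks by 6.96 points (3.97 to 10.1), and the share of lost peaks was at the level of the flanks.

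The AP-1 difference between gained and lost peaks had the same direction in all 4 classes of Phase 1 RUNX1 rank. It was 15.2% against 2.97% at or below percentile 80, 13.4% against 3.09% up to percentile 90, 19.1% against 7.50% up to percentile 95, and 8.66% against 0.00% of 51 lost peaks above it. The PU.1 string GAGGAAGT, bound by the progenitor and myeloid factor encoded by Spi1, was in 10.1% of kept, 4.24% of lost and 12.4% of gained non-promoter peaks. Gained peaks exceeded lost peaks by 8.17 points (4.88 to 11.2), a difference that turned to -0.183 points (-6.65 to 10.1) when both lists were limited to scores of at least 30. The RBPJ string GTGGGAA did not separate the groups (7.49%, 7.73% and 6.76%). The ETS string CCGGAAGT was at 0.416%, 0.748% and 1.24%, and the CTCF consensus and the NRF1 consensus were found in at most 2 peaks of any of the 3 groups. The median GC content of the windows was 52.5% for kept, 53.5% for lost and 50.5% for gained peaks, and its part in these shares was not tested.

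Gained promoter peaks held few RUNX strings. A RUNX string was present in 33 of 140 kept (23.6%, 17.3 to 31.2), 9 of 48 lost (18.8%, 10.2 to 31.9) and 21 of 266 gained promoter peaks (7.89%, 5.22 to 11.8), a difference between gained and kept of -15.7 points (-23.8 to -8.31). Windows 2 kb from the gained promoter peaks held it in 4.51%, and all 9242 Phase 1 RUNX1 promoter peaks on assembled chromosomes in 6.10%. The AP-1 string was less common in gained than in kept promoter peaks (2.63% against 7.14%), a difference of -4.51 points (-10.2 to -0.312) in the opposite direction to the non-promoter peaks. Lost promoter peaks held it in 1 of 48. For RUNX strings gained promoters were close to the average RUNX1-occupied promoter, and kept promoters were above it. Median GC was 64.0%, 63.8% and 64.0% for kept, lost and gained promoter peaks. A match of such letters describes the window and does not show that a factor bound there.

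**Figure D5:**
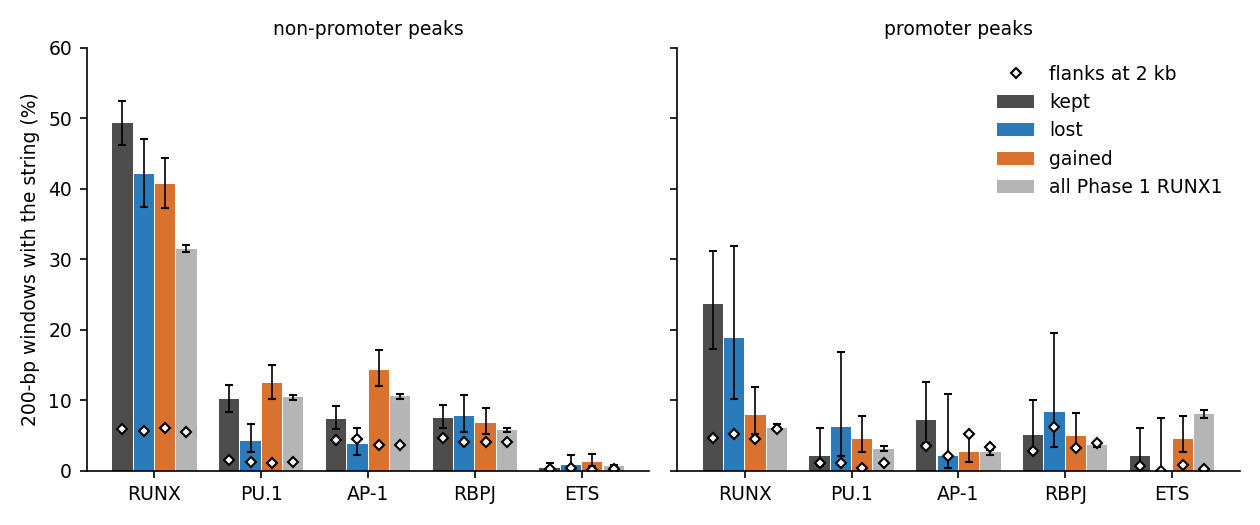
Percentage of 200-bp peak centers holding a consensus string (y axis, 95% Wilson interval) for 5 strings (x axis) in kept, lost and gained RUNX1 peaks and in all Phase 1 RUNX1 peaks, with diamonds for windows 2 kb away. AP-1 reaches 14.3% in gained and 3.74% in lost non-promoter peaks, and RUNX 23.6% in kept and 7.89% in gained promoter peaks.

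Genes were assigned by the nearest start site given in the files, which gave 950 genes for kept, 422 for lost and 902 for gained peaks. Of the genes nearest to lost peaks, 128 were also nearest to a kept or gained peak. Of the 28 T cell and Notch pathway genes listed, 17 were nearest to at least 1 peak, and 15 of their 20 control peaks were kept (75.0%, 53.1 to 88.8), against 71.0% of all control peaks. Of their 17 sgMed12 peaks 2 were gained (11.8%, 3.29 to 34.3), against 47.4% of all sgMed12 peaks. Kept and lost peaks alike lay at genes of T-lineage regulators, of the T cell receptor complex and its signaling, and of Notch signaling.

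At Tcf7, which encodes the early T-lineage factor TCF-1, control peaks 35.6 kb (chr11:52318390-52318740, score 61.2) and 31.4 kb upstream (chr11:52314221-52314571, score 55.4) were kept, with sgMed12 scores of 37.0 and 30.5. Their percentiles went from 97.6 to 93.6 and from 96.1 to 84.9. The nearer kept peak held the RBPJ string shown above and overlapped a Phase 2 Notch1-IC peak. A peak 22.5 kb upstream (chr11:52305345-52305603, score 18.9) was gained, and a peak at the promoter of the neighboring Skp1, a ubiquitin ligase subunit, was gained as well (score 18.8). Tcf7 sites therefore lost none of their control peaks.

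At Gata3, another regulator of T-lineage specification, all 3 control peaks were kept. They lay 284 kb (score 44.4), 271 kb (15.9) and 76.9 kb (33.0) downstream of the start site, and sgMed12 scores were 37.6, 16.2 and 30.4. By rank all 3 stood higher in the sgMed12 list, with percentiles from 91.1 to 94.1, 6.0 to 13.4 and 75.2 to 84.7. The farthest and the nearest overlapped Phase 2 Notch1-IC peaks and Phase 1 CTCF peaks. Kept peaks were also found in Notch3 (chr17:32164172-32164522, intron, score 29.1 and 17.0), a Notch receptor gene induced by Notch signals, and 19.5 kb upstream of Il2ra (chr2:11623117-11623467, score 20.5 and 15), which encodes CD25. The Il2ra peak stood at percentile 0.406 of the sgMed12 list, just inside its lower limit.

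Peaks at genes of T cell receptor signaling were kept as well, and 4 of the 5 with scores given below had a lower rank in the sgMed12 list. Over all 1101 kept pairs, 588 (53.4%) had a higher rank there, as did the Gata3 peaks. These 5 peaks allow no closer comparison. The promoter peak of Lat, an adaptor of the receptor (score 35.1 and 19.9), was kept. So were peaks 1.74 kb upstream of Lck (23.0 and 16.5), 56.9 kb downstream of the Zap70 start site (29.2 and 19.6), in Cd247 (36.4 and 18.8) and at Cd3d (43.5 and 43.3), which encode kinases and chains of the receptor complex. The Cd247 peak went from percentile 81.3 of the control list to 34.8 of the sgMed12 list, while the Cd3d peak went from 90.1 to 97.5. Peaks nearest to Cd28 and Cd2 were kept too. No member lay within 50 kb of Thy1 or Zap70, and in the window of Lck the promoter of the neighboring Hdac1, a histone deacetylase gene, was gained (28.2). Of the listed T cell and Notch genes, Hey1, Dtx1, Nrarp, Ptcra, Bcl11b, Cd3g, Thy1, Rag1, Rag2, Themis and Il7r were nearest to no peak in either list.

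The 5 lost peaks of this list were low in rank. They were nearest to Cd3e (chr9:44998061-44998411, score 18.2), Cd7 (16.1), Lef1 (22.5), Hes1 (16.1) and Notch1 (21.4), all at or below percentile 41.0 of the control list. The Notch1 peak lay in an intron 1.49 kb from the start site (chr2:26502155-26502505), held both a RUNX and an RBPJ string, and coincided with Notch1-IC sites in both phases.

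The Hes1 region, around the Notch target gene that encodes a transcriptional repressor, held all 3 outcomes. The Hes1 promoter itself (chr16:30065101-30065359, score 24.0) was occupied in sgMed12 cells and not listed in control cells. This peak coincided with Notch1-IC sites of both phases, and its center holds the RBPJ string printed above and no RUNX string. Downstream, counted from the GENCODE start of Hes1, peaks at 81.3 kb (chr16:30145463-30145813, score 16.1), 115 kb (15.6) and 163 kb (chr16:30227379-30227729, score 52.9) were lost, while peaks at 117 kb (25.3 and 16.2) and 121 kb (40 and 18.8) were kept. The lost peak at 163 kb was at percentile 95.4 of the control list and overlapped a Phase 2 and an LP Notch1-IC peak.

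The AP-1 and ETS family genes had both gained and kept peaks. Of the 16 AP-1 and ETS family genes listed, 7 were nearest to a peak, and 6 of their 9 sgMed12 peaks were gained (66.7%, 35.4 to 87.9), an interval that includes the 47.4% of all sgMed12 peaks. Of these 6, 3 were at Fos. Peaks 26.7 kb (score 24.0), 18.5 kb (chr12:85455242-85455500, score 45.7) and 5.09 kb upstream of Fos (31.3) were all gained, and no control peak was nearest to Fos. A peak 10.1 kb upstream of Fosb was gained (chr7:19320012-19320270, score 33.6) beside a kept one 6.66 kb upstream (45.5 and 42.2). The Junb promoter (chr8:84978696-84978954, score 26.7) and a site 4.82 kb upstream of Egr1, an immediate early zinc finger gene (score 34.2), were gained. The Jund site 2.23 kb upstream was kept (62.7 and 47.1), and so was a peak in Etv6. Both control peaks in introns of Fli1, an ETS factor of blood progenitors, were lost (scores 16.0 and 15.9). All 6 gained peaks of this list overlapped Phase 1 RUNX1, Med12 and p300 peaks. So did 96.4%, 95.9% and 93.9% of all gained non-promoter peaks, and 97.8%, 96.3% and 94.0% of all gained promoter peaks, so this does not set the list apart.

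The RUNX genes themselves were densely occupied. Runx3, with 16 peaks over both lists, and Runx1, with 11, had more peaks than any other gene. A kept site is counted in each of the lists here. Runx3 kept all 6 of its control peaks, including its promoter (chr4:135120330-135120680, score 72.6 and 52.7), and gained 4 others between 66.1 kb upstream and 50.9 kb downstream. Runx1 kept all 4, including a promoter peak (42.3 and 44.5), and gained 3. The control peak of Runx2 was kept (19.8 and 16.7). Over the 16 RUNX, Mediator and cofactor genes, 11 of 12 control peaks were kept (91.7%, 64.6 to 98.5), and 9 of 20 sgMed12 peaks were gained (45.0%, 25.8 to 65.8). Both intervals include the shares over all peaks, 71.0% and 47.4%. Ep300, the gene of p300, gained its promoter (score 35.2) and a peak 46.5 kb upstream (16.7). The lost peak of this list lay at an rRNA repeat in an intron of Cdk8, described below. Of the other genes with most peaks, Smad3, a TGF-β signal transducer, kept 4, lost its promoter peak (score 21.4) and gained 1. Gm5122 kept 4 and lost 1, and the peaks nearest to the ribosomal protein gene Rplp1 lay over 200 kb away (3 kept, 1 lost, 2 gained).

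Most control peaks at progenitor genes were kept. Of 23 genes listed 9 had a peak, with 8 of 11 control peaks kept (72.7%, 43.4 to 90.3) and 4 of 12 sgMed12 peaks gained (33.3%, 13.8 to 60.9). Both intervals include the shares over all peaks (71.0% and 47.4%), and 11 and 12 peaks allow no closer comparison. The promoters of Flt3, a cytokine receptor of lymphoid progenitors (33.6 and 19.3), Lyl1, a bHLH factor (39.0 and 33.8), Gfi1, a repressor (18.4 and 15.7), and Nfe2, a bZIP factor of erythroid cells and megakaryocytes (77.9 and 54.9), were kept. The study also counts Nfe2 and Gfi1 among its Notch-regulated T-signature genes. The Nfe2 promoter peak overlapped a Phase 1 Notch1-IC peak and also an LP Notch1-IC peak, from cells without the ligand. Peaks near Spi1 (16.3), in Erg (16.9) and near Csf1r (20.8) were lost. Peaks near Cd44 (27.7 and 21.6, each an sgMed12 score) and Mef2c (25.9 and 16.8) were gained. The B lineage list had 1 kept peak, near Ikzf1, and 1 lost, near Bach2. The innate lymphoid list had kept peaks in Zbtb16 and Tox and a lost one near Tox. Of 91 ribosomal protein genes 3 had a peak, with 4 of 5 control peaks kept and 3 of 7 sgMed12 peaks gained, among them the Rps19 promoter. Of 15 genes that mark stromal cells such as OP9, 14 had no nearest peak and Pdgfrb had 1 kept intronic peak.

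The highest-scored peaks of each outcome were mainly at genes outside these lists. Kept promoters were led by Brpf1 (chr6:113306474-113306824, score 104.9 and 63.7), Rnf44 (89.1 and 68.4) and Msh6, a DNA mismatch repair gene (79.8 and 63.4). Kept non-promoter peaks were led by one 67.1 kb upstream of Aff3 (90.9 and 58.2), and by those near Atp13a2 (82.8 and 57.6), Dad1 (79.6 and 68.4), Gm5122 (78.7 and 44.7) and Cracdl (77.0 and 42.8). The Dad1 site, shared by 13 of the 15 other lists, coincided with Notch1-IC sites of all 3 Notch1-IC lists. Gained promoters were led by Ddx54 (chr5:120612844-120613102, score 47.5), Sde2 (46.7), Cdk4, a G1 cyclin-dependent kinase gene (45.8), Mir22hg (45.1) and Acss2 (44.7). Each of these 5 stood at or above percentile 98.2 of the sgMed12 list and percentile 98.9 of the Phase 1 RUNX1 list. Gained non-promoter peaks were led by sites near Mir23a (53.2), Ssc4d (47.1), Fos (45.7), Rara, the retinoic acid receptor gene (43.7), and Slc25a39 (43.1). Lost promoters were led by Mir466d (71.6), Nub1 (chr5:24685486-24685836, score 52.7), Slc39a13 (49.0), Tmem123 (43.7) and Vps26c (42.1).

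Several of the highest-scored control peaks were lost peaks at repeats. Peaks annotated as rRNA repeats numbered 7 among lost peaks and 0 among kept and gained peaks. They included the sites in Cdk8 (chr5:146260989-146261339, score 293.1), 284 kb upstream of Pex2 (285.5), in Txndc11 (175.0) and in Gphn (98.5). The lost peak in the 3′ untranslated region at Limd1 (chr9:123461841-123462191, score 270.3) was not annotated as a repeat. These 5 were the highest-scored lost non-promoter peaks, and each coincided with a peak in 6 or 7 of the 15 other lists, Phase 1 RUNX1 among them. Without peaks at satellite, simple, low complexity or RNA repeats or on unplaced sequences, the non-promoter kept share was 70.7%, and that of the highest score class was 92.0%.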

How the data were processed

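Cells were fixed with disuccinimidyl glutarate and formaldehyde, and RUNX1 was precipitated with the antibody ab23980. The labels give single-read sequencing, whereas the study's methods give paired reads on another instrument. Per the labels and the study's methods, reads were mapped to mm10 with Bowtie 1.1.1, and peaks were called against a matched control and annotated with HOMER. The 2 replicates of each condition were combined into 1 list by irreproducible discovery rate, with a minimum normalized peak score of 15. The deposited files hold, per peak, coordinates, this score, annotation and distance to the nearest transcription start. Scores were made by the authors per list and were therefore compared only as ranks within a list, or printed side by side. Widths were fixed per list at 351 bp for sgCont and 259 bp for sgMed12. No read counts were used, so depth is unknown. No other column of per-sample values was left unused (0 columns).

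From these lists, overlaps of at least 1 bp, Wilson and Newcombe intervals, strings and GC content were computed in Python 3.11.15 with pandas 2.3.3, pysam 0.24.0 and samtools 1.23.1. The overlap and interval functions were tested on simulated data. Strings were searched in the central 200 bp and in windows of equal width 2 kb to each side, on the RefSeq copy of GRCm38. Nearest genes were named by matching RefSeq transcript accessions, which failed for 3 sgCont peaks and 1 sgMed12 peak. Locus windows were taken from GENCODE vM21, from 50 kb upstream to 50 kb downstream of Il2ra, Lck, Notch3, Tcf7, Thy1 and Zap70, and further, to 300 kb downstream, for Gata3 and Hes1. Symbols of ribosomal S6 kinases were left out of the ribosomal protein list. Named peaks were the 5 highest-scored of each outcome and promoter class, those nearest to a listed gene or to the 5 genes with most peaks, and those in the locus windows. The members and lists were chosen with earlier results of these data known. No test across replicates was possible, and no p-value is given. The guide RNA sequences are not printed here, and 1 listed gene is not reported here.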

Additional observations from a re-analysis of the deposited data

How the results depend on the processing

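No paired analysis was possible because the 2 replicates of each condition were combined into 1 list, and leaving out a replicate was not possible for the same reason. The 23 shares or differences were recomputed under up to 9 alternatives, since shares by score class were not recomputed with a minimum score and the lowest class held no peak of at least 30. Of these values 152 stayed within the interval of the main value, 44 left it and 1 turned its sign. The alternatives for the sequence strings and the shares within classes of Phase 1 RUNX1 percentile were added after seeing the data. The lists hold no counts, so what depth limits could not be computed, and peaks near the score limit can be missing by chance from either list.

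The gained minus lost promoter share stayed positive throughout, at 21.7 points with a minimum score of 20 in both lists, 34.1 with 30, 31.1 for peaks of at least 30 with any partner, and 24.2 for equal numbers of top-scored peaks. Kept shares moved most. With a minimum of 20 they were 66.4% at promoters and 61.6% elsewhere, with 30 they were 53.9% and 43.0%, for peaks of at least 30 with any partner 83.1% and 89.4%, and with equal numbers of top peaks 65.4% and 58.4%, when the lowest non-promoter class fell to 22.5%. The refound share of non-promoter peaks was 63.1%, 74.5%, 81.7% and 65.8% under these 4 alternatives, from 57.0%, and at promoters it was 44.8% with a minimum of 30 and 45.7% for peaks of at least 30 with any partner, from 34.4%. These shifts follow in part from the alternatives' own construction, since a higher minimum removes partners. Promoter shares of the sgCont and sgMed12 lists were 13.9% and 23.1% with 20, 18.0% and 30.9% with 30 and with any partner, and 15% and 22.2% with promoters defined as within 1 kb of a start. The sgMed12 share was 22.0% for equal numbers.

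With peak centers at most 100 bp apart, gained minus kept was -6.77 points for CTCF, -5.57 for Med12 and -7.90 for p300, and kept minus lost was 7.45 for Med12 and 6.88 for p300. With a minimum of 30 the gained minus kept difference was -0.517 for Med12 and -2.76 for p300, and kept minus lost was 0.149 for Med12. Gained minus kept was -1.22 for Med12 with any partner, and -0.905 for Med12 and -2.10 for p300 for peaks on the Phase 1 RUNX1 list. The stimulated Notch1-IC difference between gained and lost was -12.3 with a minimum of 30 and -11.6 (-25.7 to 1.91) with any partner. LP Notch1-IC, kept minus lost, was 26.0 with equal numbers. AP-1 differences for peaks of at least 30 with any partner were 16.7 (gained minus lost) and 12.7 (gained minus kept), from 42 gained peaks. The PU.1 difference turned to -0.183 with a minimum of 30. The cause of these moves was otherwise not tested.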
